A study of Homo sapiens with 6 samples.

Results

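The ephrin, semaphorin and plexin guidance genes were chosen by symbol as the protein-coding genes that encode ephrins and Eph receptors, semaphorins of classes 3 to 7 with their plexin and neuropilin receptors, Slits with Robos, and netrins with UNC5 receptors. They were 62 of the 27009 genes in the table, and 49 of them reached a scaled value of 10 in at least 3 libraries and were tested. RNA sequencing had been performed on cells labelled Hep3B, a human liver cancer cell line. All 6 libraries came from cells whose endogenous PD-L1 had been knocked out, 3 with the vector and 3 with nPD-L1 overexpressed. nPD-L1 is a form of PD-L1 mutated so that it resides in the nucleus, and it was delivered by lentivirus from a vector with the CMV promoter into stable cells. The comparison asked which genes nPD-L1 moves when membrane PD-L1 is absent. The labels do not say whether the replicates were separate cultures, so the p values measure the spread between these libraries, which may be technical. In bulk libraries, fewer cells that express a gene and less RNA per cell cannot be told apart.

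Guidance molecules were first known for steering axons, and the same ligand and receptor pairs act in epithelia, vessels and tumors. Ephrins are bound to the membrane, the A class by a lipid anchor and the B class by a transmembrane segment, and they signal on contact through the Eph receptor tyrosine kinases of the neighboring cell. Semaphorins act through plexins, often with a neuropilin as co-receptor, Slits act through Robos, and netrins act through DCC and UNC5 receptors. Most of these receptors act on the cytoskeleton and on adhesion.

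Values are scaled reads, that is, reads on a gene divided by a factor for each library. The recovered depth was 17427519 to 22253295 reads on genes per library. CD274, which encodes PD-L1, did not check the labels. It stood at 28.3, 38.4 and 47.8 scaled reads in vector libraries and at 16.8, 19.2 and 30.9 in the nPD-L1-labelled ones (log2 fold change −0.76, adjusted p = 0.338 from limma). Every direction below therefore rests on the labels. Of 10 hepatocyte markers looked for, 9 were in the table and AFP was not. ALB, APOA1, APOB, TF and TTR were at or below 2.89 scaled reads in every library. By contrast, FGB was at 962 to 1540 and APOH at 140 to 308, with SERPINA1 at 7.91 to 41.4 and HNF4A at 6.24 to 51.6. These 5 defining markers did not check the labelled liver origin, and the identity of the line was not tested. The summed hepatocyte list ranged from 1151 to 1870 in vector libraries and from 1204 to 1355 in the nPD-L1-labelled libraries. Of 3 fibroblast markers in the table, COL1A1 was at 49.9 to 82.8 and 445 to 487, and PDGFRB and DCN did not exceed 8.31. The endothelial and leukocyte lists each summed to at most 8.09 in any library, and the summed neuron list was at 329 to 413 and 337 to 384. The part of any of these markers in the results was not tested.

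The promoters of 4 genes that were higher in the nPD-L1-labelled libraries are shown before their values, because these genes had high log2 fold changes or, for EPHA2, the highest level per length. The sequences are the RefSeq bases of GRCh38.p14 upstream of the gene start that RefSeq gives, 5′ to 3′ on the gene's strand. For EFNA2 and EFNA3 this start lies before the one in the deposited table. For EPHA2 it lies after it, and the bases shown stop at the start in the deposited table. SEMA7A has another RefSeq start, and the one nearest to that of the deposited table was used. Capitals mark the GC box GGGCGG or its reverse complement, and in EPHA2 also the cyclic AMP response element TGACGTCA. The regions are chr15:74433959-74434208 on the − strand for SEMA7A, chr19:1285623-1285872 on the + strand for EFNA2, chr1:155078587-155078836 on the + strand for EFNA3 and chr1:16156088-16156319 on the − strand for EPHA2, the last of which is 232 bases long.
SEMA7A: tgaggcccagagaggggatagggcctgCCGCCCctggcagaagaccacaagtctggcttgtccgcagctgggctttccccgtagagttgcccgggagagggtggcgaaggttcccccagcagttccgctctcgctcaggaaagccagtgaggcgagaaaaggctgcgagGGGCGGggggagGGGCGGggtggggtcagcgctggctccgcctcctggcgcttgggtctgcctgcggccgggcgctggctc
EFNA2: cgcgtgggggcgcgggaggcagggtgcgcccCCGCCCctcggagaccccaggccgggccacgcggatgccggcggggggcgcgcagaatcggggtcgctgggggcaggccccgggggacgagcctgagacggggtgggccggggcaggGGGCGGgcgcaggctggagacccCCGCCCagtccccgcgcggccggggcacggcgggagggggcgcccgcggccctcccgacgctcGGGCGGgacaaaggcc
EFNA3: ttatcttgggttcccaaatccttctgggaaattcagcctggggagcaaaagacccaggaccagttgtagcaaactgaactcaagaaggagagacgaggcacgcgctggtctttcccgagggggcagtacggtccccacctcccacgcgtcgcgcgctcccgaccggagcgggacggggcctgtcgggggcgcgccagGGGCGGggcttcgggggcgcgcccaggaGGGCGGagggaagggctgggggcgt
EPHA2: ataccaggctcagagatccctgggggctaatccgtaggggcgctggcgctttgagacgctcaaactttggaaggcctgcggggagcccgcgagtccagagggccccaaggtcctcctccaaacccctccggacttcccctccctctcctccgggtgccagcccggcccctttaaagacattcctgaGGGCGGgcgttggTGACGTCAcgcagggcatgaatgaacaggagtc

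A RefSeq promoter was matched by symbol for 54 of the 62 guidance genes, including 8 of the 9 that were higher. UNC5B had no entry. On either strand of the 250 bases before the start, a GC box was found in 8 of these 8 genes, in 28 of 33 tested guidance genes that were not called, and in 42.6% of 35116 promoters. The AP-1 motif TGANTCA was in 0 of the 8, in 1 of the 33 and in 6.57% of all promoters. The cyclic AMP response element was in EPHA2 alone of the 8, in 2 of the 33 and in 1.65% of all promoters. The SMAD box CAGACA was in 0 of the 8 and 8 of the 33 (13.6% of all promoters), and the E-box CACGTG was in 0 of the 8 and 2 of the 33 (6.34%). A guidance gene counted if any of its promoter windows matched, whereas the percentages are per window, so they are unlike measures. Such a match describes the letters of these windows and is not a binding site.

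In the libraries labelled nPD-L1, 9 guidance genes were higher and 1 was lower by limma at an adjusted p under 0.05. The higher genes were the ephrins EFNA1, EFNA2 and EFNA3, the Eph receptors EPHA2 and EPHB3, the semaphorin SEMA7A, the semaphorin receptors NRP2 and PLXNA2, and the netrin receptor UNC5B. The lower gene was the netrin NTN4. Among all 15076 genes tested, 4.04% were higher and 0.922% lower (4.96% in either direction), and among the 49 guidance genes tested 18.4% were higher and 2.04% lower. EFNA2, EFNA3 and EPHB3 passed the filter with the help of the nPD-L1-labelled libraries, in which they are high. With 10 scaled reads required in every library, 6 of 40 guidance genes were higher and 1 lower. The share of all genes called under that filter is not given here. All libraries labelled nPD-L1 lay above all vector libraries in 18 of the 49 (background 12%) and below them in 2 (background 8.54%). The median log2 fold change was 0.15 for the tested guidance genes and −0.02 for all genes tested. The guidance genes were also longer, with a median of 7006 bases against 4654.

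**Figure D1:**
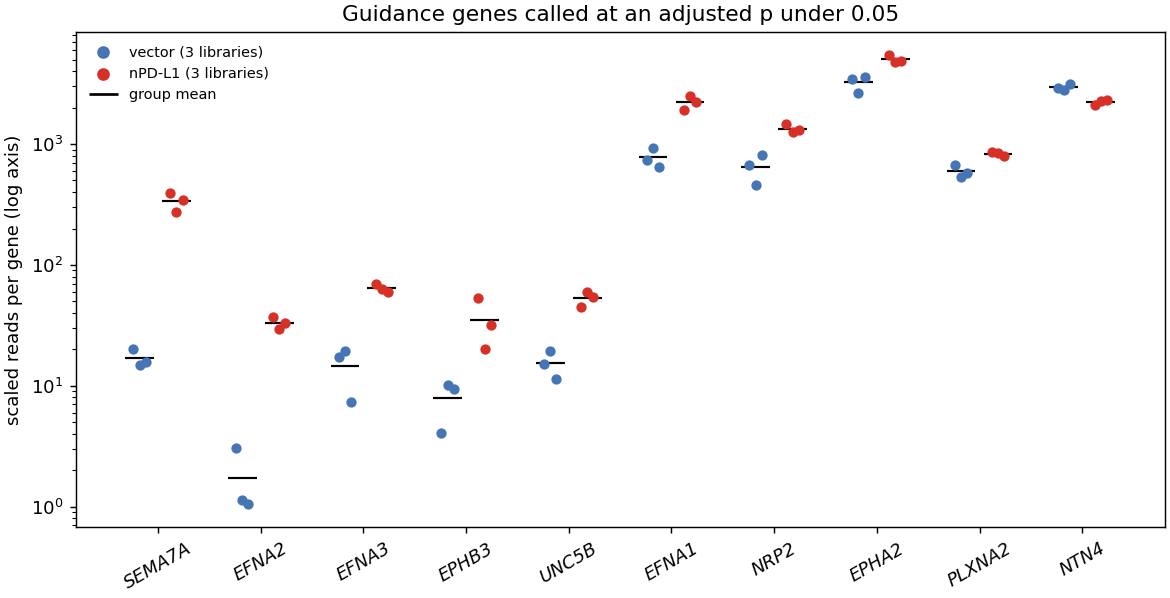
Scaled reads per gene on a log axis for the 10 called guidance genes, with 1 point per library, 3 vector and 3 nPD-L1 libraries, and a black line at each group mean. The groups do not overlap in any of the 10 genes, SEMA7A lies farthest apart (16.8 against 337) and NTN4 is the gene with the higher vector libraries.

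By role, 4 of 26 tested ligands were higher and 1 lower, with a median log2 fold change of 0.05. Of 23 tested receptors 5 were higher and 0 lower in limma (0 also in edgeR, in DESeq2 and at an unadjusted p under 0.05), with a median of 0.18. EFNA2, EFNA3, EPHB3 and UNC5B started from under 20 scaled reads in all vector libraries, and SEMA7A started from close to 20 or less. The ephrins had the highest median of the families, 0.75 over 7 genes, followed by Eph receptors at 0.32 over 9, plexins and neuropilins at 0.22 over 10, semaphorins at 0.10 over 15, and Slits, Robos, netrins and UNC5 receptors at 0.05 over 8.

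**Figure D2:**
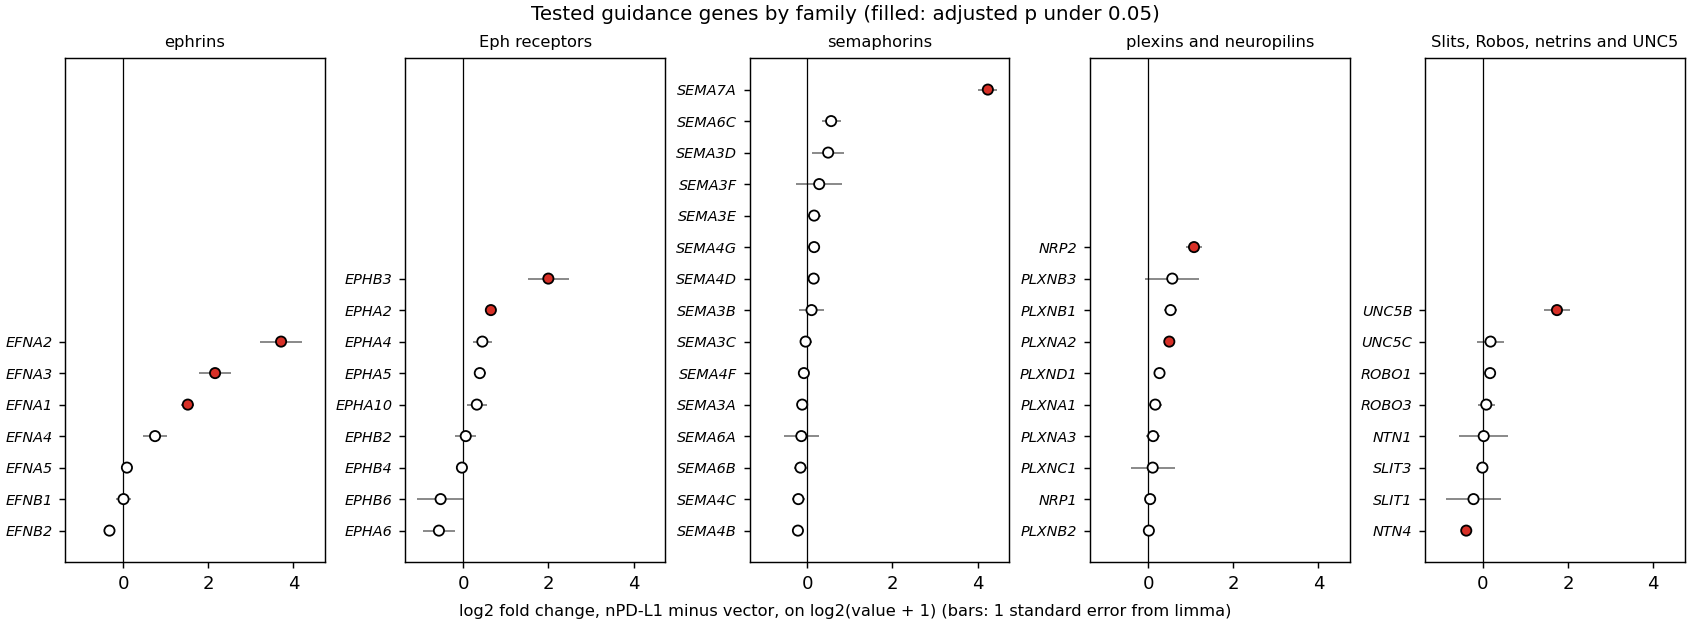
Log2 fold change of nPD-L1 minus vector on the log2(value + 1) scale for the 49 tested guidance genes in 5 family panels, with bars of 1 standard error from limma and filled points for an adjusted p under 0.05. Most points lie near 0, while 3 ephrins, EPHB3, SEMA7A and UNC5B stand above 1.5 on this scale.

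Of the ephrin and Eph classes, the ephrin-A ligands had the highest median log2 fold change, 1.52 over 5 genes, and 3 of the 5 were higher. EFNA1, the founding ephrin and a ligand of EphA2, had 737, 936 and 647 scaled reads in vector replicates 1, 2 and 3 and 1920, 2502 and 2211 in the nPD-L1-labelled libraries. The lowest library labelled nPD-L1 was thus above the highest vector library. The log2 fold change was 1.52 (standard error, SE, 0.15, limma adjusted p = 0.00013), a ratio of means of 2.86. EFNA1 was the ephrin with the highest level per gene length in both groups, at 305 and 871 scaled reads per kb. It was called in all 21 fits tried, with an adjusted p of at most 0.0022 in limma when any one library was left out.

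EFNA3, another A-class ligand, had 17.2, 19.2 and 7.27 scaled reads in vector libraries and 68.9, 62.7 and 59.8 in the nPD-L1-labelled ones. Vector replicate 3 was the lowest library, and the groups did not overlap. Its log2 fold change was 2.16 (SE 0.37, limma adjusted p = 0.0054). The call was lost without nPD-L1 replicate 1, at an adjusted p of 0.052 in limma.

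EFNA2 was almost silent in vector libraries, with 3, 1 and 1 recovered reads, and had 44, 29 and 34 reads in the nPD-L1-labelled libraries. The ratio after scaling was 18.9, with a 95% interval of 7.85 to 59.4 that covers counting error only. As scaled reads these were 3.03, 1.13 and 1.04 against 37.0, 29.3 and 32.8, and the log2 fold change was 3.71 (SE 0.49, limma adjusted p = 0.0011). EFNA2 has the shortest deposited length of these genes, 949 bases, and per kb it went from 1.83 to 34.8 scaled reads. Leaving out any library labelled nPD-L1 put EFNA2 under the minimum value, so that it had a p value in only 3 of the 6 leave-one-out fits. It was called in these 3.

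Members of the A class that were not called were EFNA4 and EFNA5. EFNA4 had 32.3, 50.8 and 34.3 scaled reads in vector libraries and 84.9, 63.7 and 51.1 in the nPD-L1-labelled ones. These groups stood only 0.3 scaled reads apart at their nearest libraries, and the log2 fold change was 0.75 (SE 0.28, limma adjusted p = 0.223). EFNA5 was at 1137 to 1486 and 1331 to 1496 (log2 fold change 0.09). Of the transmembrane B class, EFNB1 had a log2 fold change of 0.01, and EFNB2, the ligand of EphB4 in vessel development, had 497, 420 and 524 against 413, 339 and 404 (−0.32, adjusted p = 0.314 from limma).

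Summed per kb over its 5 genes, the ephrin-A class went from 588, 670 and 486 scaled reads in vector libraries to 1132, 1362 and 1232 in the nPD-L1-labelled ones (582 ± 92.1 against 1242 ± 115, SD, n = 3 each). EFNA1 made up 52.4% of the vector sum and 70.1% of the other. The ephrin-B sum was 164 ± 24.1 against 145 ± 12.3 (SD, n = 3 each), so the 2 groups of libraries overlapped there.

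EFNA4, EFNA3 and EFNA1 lie side by side on the + strand of chromosome 1 within 71.1 kb, and EFNA3 runs from 155078872 to 155087538 and EFNA1 from 155127460 to 155134857 (GRCh38). Of the genes that are not ephrins and lie within 100 kb of this cluster, 17 were tested and 0 were called in limma, edgeR or DESeq2 (1 had an unadjusted p under 0.05 in limma), with log2 fold changes from −0.46 to 0.39. In limma 4.96% of all genes tested were called, so 0 of 17 is near that share and does not set these genes apart. EFNA3 and EFNA4 are both overlapped on the same strand by the GENCODE 29 gene model AL691442.1, for which the deposited table holds no values. Reads could have been split among these gene models, so the values of EFNA3 and EFNA4 are uncertain to that extent. EFNA2 lies apart, on chromosome 19 from 1286154 to 1300237, where 10 tested genes within 100 kb had log2 fold changes from −0.37 to 0.18.

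**Figure D3:**
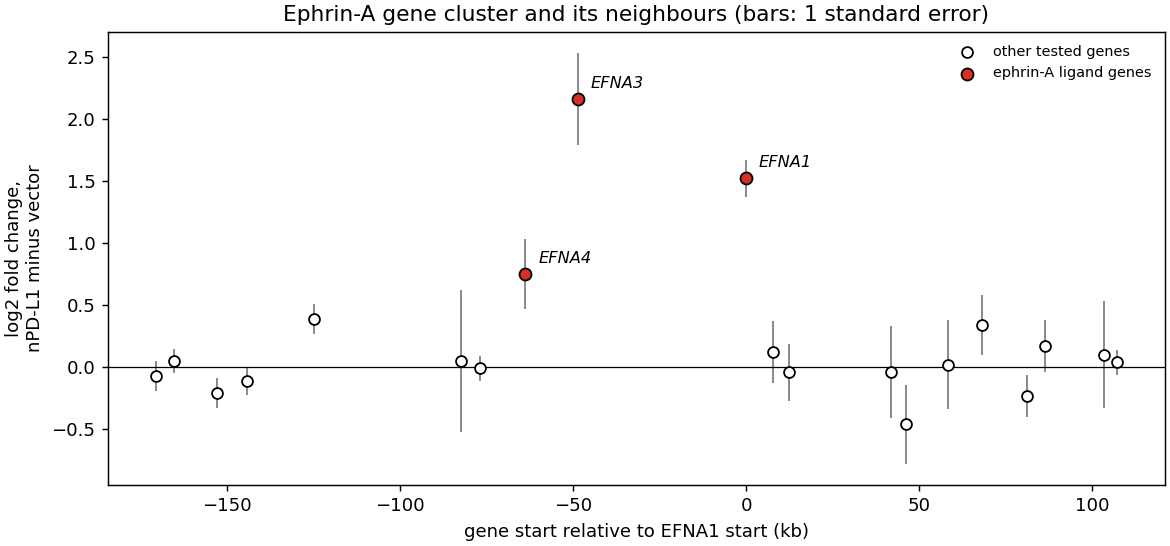
Log2 fold change of nPD-L1 minus vector against the distance of each gene start from the start of EFNA1 in kb, with bars of 1 standard error, filled points for the 3 ephrin-A genes and open points for the 17 other tested genes. The ephrin-A genes stand at 0.75, 2.16 and 1.52, and the open points stay between −0.46 and 0.39.

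Among the Eph receptors, EPHA2, a receptor of EFNA1 that is abundant in many carcinomas, had the highest level per length of all 62 guidance genes, at 779 scaled reads per kb in vector libraries and 1214 in the nPD-L1-labelled ones. Scaled reads of this gene were 3459, 2669 and 3597 in vector libraries and 5484, 4813 and 4850 in the nPD-L1-labelled libraries. Vector replicate 2 was the lowest library, and the groups did not overlap. The log2 fold change was 0.65 (SE 0.13, limma adjusted p = 0.012). The call was lost without nPD-L1 replicate 1 or 3, at adjusted p values of 0.089 and 0.057 in limma. EPHA2 lies on the − strand of chromosome 1 from 16124337 to 16156087. An antisense gene, AL451042.2, overlaps its 5′ end and held at most 16.1 scaled reads in any library.

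EPHB3, a B-class receptor known from the ordering of intestinal crypt cells, had 4.04, 10.2 and 9.35 scaled reads in vector libraries and 52.9, 20.2 and 31.8 in the nPD-L1-labelled ones. The libraries labelled nPD-L1 were widely spread, and the lowest of them was still above all vector libraries. Its log2 fold change was 2.0 (SE 0.48, limma adjusted p = 0.037), at a level of 1.73 and 7.72 scaled reads per kb. Without vector replicate 1, nPD-L1 replicate 1 or nPD-L1 replicate 3 the adjusted p in limma was 0.13, 0.2 and 0.15, with log2 fold changes of 1.64, 1.66 and 2.02. EPHB3 lies on the + strand of chromosome 3 from 184561784 to 184582409.

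EPHA5 had log2 fold change 0.39 (422, 389 and 366 against 424, 568 and 566 scaled reads, adjusted p = 0.205 from limma), with nPD-L1 replicate 1 next to the highest vector library. EPHB4, the second Eph receptor by level per kb, was at 915 to 1062 and 930 to 1032, with a log2 fold change of −0.03 and overlapping groups. EPHA6 had the lowest value of the family, −0.57 (48.4, 39.5 and 54.0 against 16.8, 51.6 and 34.7, adjusted p = 0.574 from limma). EPHA4, EPHA10, EPHB2 and EPHB6 were tested and not called.

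Per kb, the EphA receptors summed to 855 ± 128 scaled reads in vector libraries and 1310 ± 79.9 in the nPD-L1-labelled ones (SD, n = 3 each), and EPHA2 held 91.2% and 92.7% of these sums. The EphB sums were 232 ± 35.1 and 234 ± 32.7, with EPHB4 at 66.3% and 64.3%. The EphB sums of the 2 groups overlapped.

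SEMA7A had the highest log2 fold change of the guidance genes on the log2(value + 1) scale, although EFNA2 was above it with a pseudocount of 0.1 (4.33 against 4.31) and in edgeR (4.87 against 4.6) and DESeq2 (5.01 against 4.61) on 4 libraries. It encodes a semaphorin held at the membrane by a lipid anchor that binds integrins and plexin C1. Scaled reads of this gene were 20.2, 14.7 and 15.6 in vector libraries and 392, 273 and 345 in the nPD-L1-labelled ones. No library of either group came near the other group. The log2 fold change was 4.24 (SE 0.22, limma adjusted p = 1.6e-06), with group means of 16.8 and 337. SEMA7A was called in all 21 fits too, with an adjusted p in limma of 0.00017 or less when any library was left out. SEMA7A lies on the − strand of chromosome 15 from 74409289 to 74433958, and the 2 other genes tested within 100 kb had log2 fold changes of −0.04 and 0.20.

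The other 14 tested semaphorins were not called. SEMA3C, a secreted ligand of neuropilins and plexins, had the highest level per length of the family in both groups, at 627 and 604 scaled reads per kb, and stood at 3212 to 4801 and 3519 to 4187 scaled reads (log2 fold change −0.04). SEMA6B, a transmembrane semaphorin and the second by level per kb, was at 762, 718 and 725 against 863, 600 and 554, a log2 fold change of −0.16 with overlapping groups. SEMA6C had 55.5, 57.6 and 45.7 against 68.1, 77.9 and 89.7 (0.56, adjusted p = 0.252 from limma), and SEMA4B had the lowest log2 fold change, −0.22 (adjusted p = 0.456 from limma). The remaining tested members were SEMA3A, SEMA3B, SEMA3D, SEMA3E, SEMA3F, SEMA4C, SEMA4D, SEMA4F, SEMA4G and SEMA6A. With SEMA3C at 47.4% of the vector sum, the semaphorins summed per kb to 1325 ± 165 and 1349 ± 68.3 scaled reads (SD, n = 3 each). PLXNC1, the plexin receptor of SEMA7A, was at 5.05, 22.6 and 15.6 in vector libraries and 13.4, 13.1 and 13.5 in the nPD-L1-labelled ones. Its groups overlapped, with means of 14.4 and 13.4 and a log2 fold change of 0.11, so the means and the log2 values differ in sign.

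Of the semaphorin receptors, NRP2, a co-receptor for class 3 semaphorins and for VEGF-C, had 669, 460 and 819 scaled reads in vector libraries and 1461, 1252 and 1300 in the nPD-L1-labelled ones. Vector replicate 2 was the lowest library, and the groups did not overlap. The log2 fold change was 1.08 (SE 0.18, limma adjusted p = 0.0052), and the call was lost without nPD-L1 replicate 1 (adjusted p = 0.053 from limma). NRP2 lies on the + strand of chromosome 2 from 205681990 to 205798133, and its overlapping antisense gene AC007362.1 held at most 5.06 scaled reads in any library. NRP1, the other neuropilin, stood at 5865 to 7098 and 6475 to 7083 scaled reads, a log2 fold change of 0.05. It held 92.5% of the neuropilin sum per kb in vector libraries and 86% in the nPD-L1-labelled ones.

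PLXNA2, a class A plexin that transduces class 3 and class 6 semaphorins, had 671, 536 and 573 scaled reads against 857, 851 and 794. The 3 libraries labelled nPD-L1 were close together and all above the vector libraries, with a log2 fold change of 0.50 (SE 0.12, limma adjusted p = 0.034). PLXNA2 lies on the − strand of chromosome 1 from 208022242 to 208244320. Without vector replicate 3 the adjusted p in limma was 0.065, and without nPD-L1 replicate 1, 2 or 3 it was 0.15, 0.17 and 0.11. The log2 fold changes of all 10 tested plexins and neuropilins were above 0, from 0.02 (PLXNB2) to 1.08 (NRP2), where 7041 of all 15076 genes tested were above 0. With a library left out, the values of NRP1, PLXNA1, PLXNA3, PLXNB2, PLXNB3 and PLXNC1 went below 0 in at least 1 fit. PLXNB1, a receptor of SEMA4D, had 273, 222 and 266 against 340, 341 and 418 (log2 fold change 0.53, adjusted p = 0.075 from limma), and PLXND1, a receptor of SEMA3E, had 1600, 1360 and 1473 against 1834, 1750 and 1753 (0.27, adjusted p = 0.209 from limma). Groups did not overlap in either gene, and neither was called in limma, whereas DESeq2 on the whole reads of 6 libraries called PLXNB1 (adjusted p = 0.032). PLXNB2, the plexin with the highest level per kb, PLXNA1, PLXNA3, PLXNB3 and PLXNC1 were not called either.

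**Figure D4:**
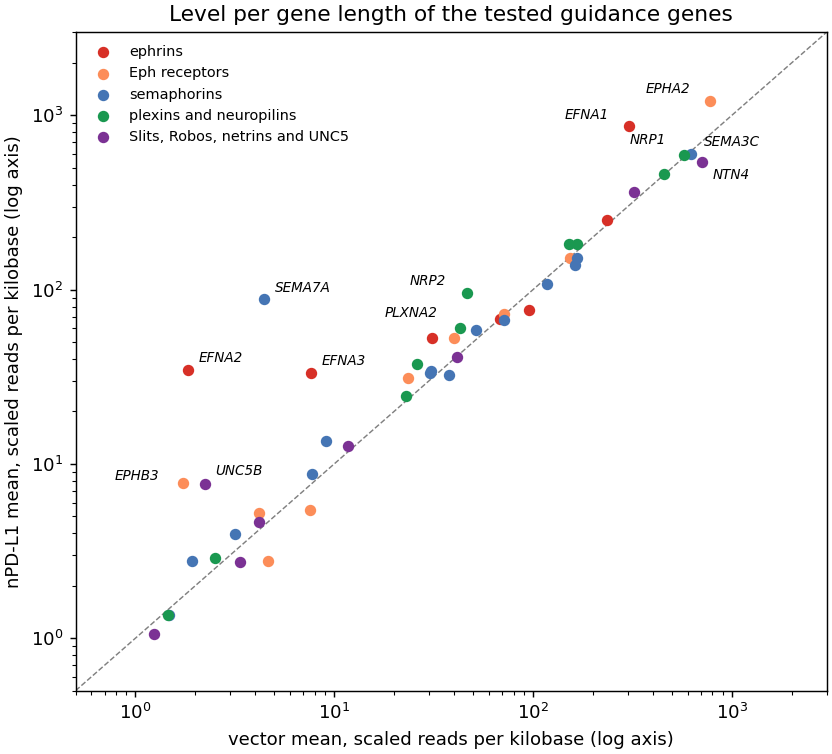
Mean scaled reads per kb of deposited gene length in the nPD-L1-labelled libraries against the vector mean for the 49 tested guidance genes, both axes log, colored by family, with a dashed line at equality. EPHA2, EFNA1, NTN4, SEMA3C and NRP1 are at the upper end, and SEMA7A and EFNA2 lie farthest above the line.

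In the netrin system a receptor was higher and a ligand lower. UNC5B, a netrin receptor also known from vessel branching, had 15.1, 19.2 and 11.4 scaled reads in vector libraries and 44.5, 59.7 and 54.0 in the nPD-L1-labelled ones. The groups were well apart, and the log2 fold change was 1.74 (SE 0.31, limma adjusted p = 0.0067). Without nPD-L1 replicate 2 or 3 the adjusted p in limma came to 0.05 and 0.051, both just above the threshold before rounding. UNC5B lies on the + strand of chromosome 10 from 71212570 to 71302864, and its antisense gene UNC5B-AS1 held at most 4.04 scaled reads in any library. Per kb the UNC5 receptors summed to 6.4 ± 1.14 and 12.6 ± 2.48 scaled reads (SD, n = 3 each). UNC5C led the vector sum with 65.1% and UNC5B the other with 61.3%, and UNC5C itself had a log2 fold change of 0.18.

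NTN4, a netrin of basement membranes that binds laminin, had 2898, 2790 and 3144 scaled reads in vector libraries and 2116, 2291 and 2310 in the nPD-L1-labelled ones. The libraries labelled nPD-L1 were all lower, and the log2 fold change was −0.39 (SE 0.10, limma adjusted p = 0.042). This was the least stable of the 10 calls. The adjusted p was 0.051 in edgeR's quasi-likelihood test on whole reads. In limma it was 0.17 and 0.1 without vector replicate 1 or 3, and 0.18, 0.17 and 0.13 without nPD-L1 replicate 1, 2 or 3. NTN4 lies on the − strand of chromosome 12 from 95657807 to 95791152. It made up 99.4% of the netrin sum per kb in vector libraries, and this sum was 711 ± 44.6 against 542 ± 26.2 scaled reads (SD, n = 3 each).

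Of 4 tested Slit and Robo genes, 0 were called in limma, edgeR or DESeq2, and 0 had an unadjusted p under 0.05 in limma. ROBO1, a Slit receptor and the second gene of this family by level per kb, had 3613, 3224 and 3642 against 3658, 4001 and 4162 scaled reads. Every library labelled nPD-L1 was above the vector libraries, but the log2 fold change was 0.17 (SE 0.10, limma adjusted p = 0.505). SLIT3, which made up 96.7% of the Slit sum per kb in vector libraries, had a log2 fold change of −0.01. ROBO3, SLIT1, NTN1 and UNC5C were also tested and not called.

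The 13 guidance genes that did not reach the minimum value were EPHA1, EPHA3, EPHB1, NTN3, NTN5, PLXNA4, ROBO4, SEMA3G, SEMA4A, SEMA5A, SEMA5B, SLIT2 and UNC5A. ROBO4, a Robo known from endothelium, had 0 recovered reads in all 3 vector libraries and 9, 2 and 6 in the nPD-L1-labelled ones. EPHA3 had 0, 1 and 0 against 8, 4 and 5 reads, a scaled ratio of 15 with a 95% counting interval of 2.35 to 627. NTN3 had 0 in all vector libraries against 2, 1 and 4, and EPHB1 had 0, 1 and 3 against 0 in all libraries labelled nPD-L1. With no filter on low values all 62 guidance genes were tested, and limma called 10, the same genes as with the filter.

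**Figure D5:**
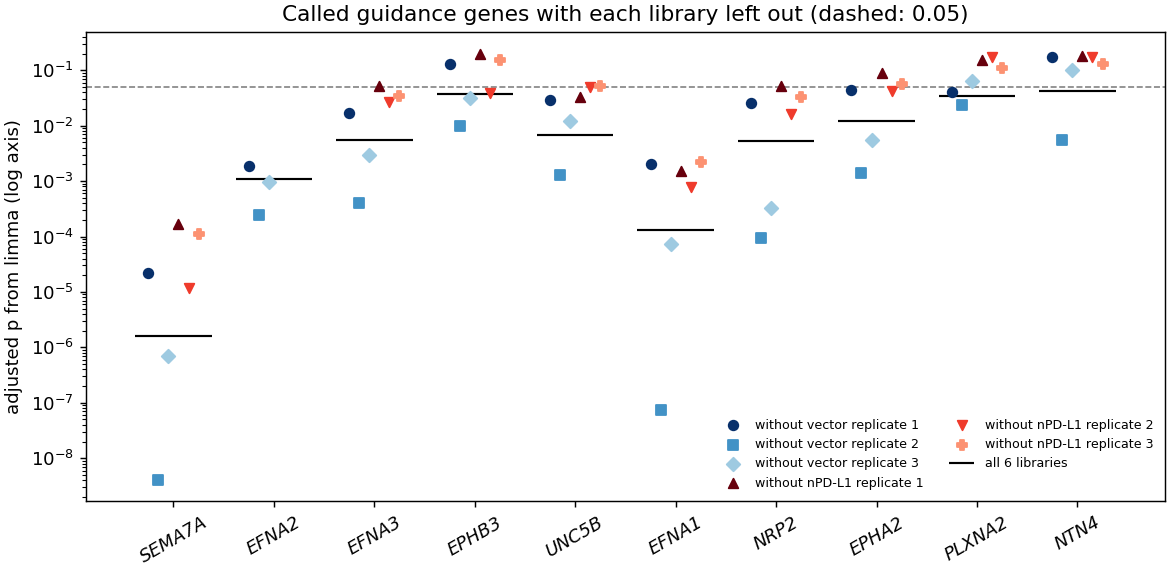
Adjusted p from limma on a log axis for the 10 called guidance genes with each of the 6 libraries left out, with a black line for the fit on all 6 libraries and a dashed line at 0.05. SEMA7A and EFNA1 stay under the dashed line with any library left out, EFNA2 has 3 fits only, and NTN4 is under it only without vector replicate 2.

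Libraries did not weigh alike on these genes. Vector replicate 2 was the lowest vector library in 31 of the 49 tested guidance genes (63.3%), against 41.4% of all genes tested. The direction of each called gene was the same in every leave-one-out fit that tested it. Without nPD-L1 replicate 1, 2 or 3, the number of called guidance genes was 3, 6 and 4, and without vector replicate 1, 2 or 3 it was 8, 10 and 8. EFNA2 fell under the minimum value in each fit without an nPD-L1-labelled library. The share of all genes called in these fits is not given here. A loss particular to guidance genes thus cannot be told from a general one. Without vector replicate 2, the adjusted p values in limma of all 10 called guidance genes were lower than with all libraries. The log2 fold changes in that fit were smaller in size for SEMA7A, EFNA2, NRP2, EPHA2 and PLXNA2. They were larger in size for EFNA1, EFNA3, UNC5B, EPHB3 and NTN4. On log2(value + 1) over all genes tested, vector replicate 2 correlated at 0.9809 with vector replicate 1 and 0.9739 with vector replicate 3. Vector replicates 1 and 3 correlated at 0.9874.

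Genes that work with these ligands and receptors were followed with a list of 79 partners and effectors, chosen with earlier results of these data in view. Of the 67 that were tested, 4 were higher and 1 lower at an adjusted p under 0.05 in limma. The 67 had a median log2 fold change of 0.11. Among all genes tested 4.04% were higher and 0.922% lower. As the list was chosen with results in view, its count says nothing about these partners as a set. RND1, which binds plexins and Unc5 receptors, had 94.9, 123 and 88.3 scaled reads against 1597, 2498 and 2044. FURIN, the convertase that cleaves class 3 semaphorins, had 1273, 1457 and 1286 against 5301, 5295 and 4864. Both had no overlap between groups and kept their calls with any library left out.

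RND3, a relative of RND1, had 912, 972 and 663 scaled reads against 1641, 1469 and 1524 (log2 fold change 0.88, adjusted p = 0.004 from limma). ABL1, a tyrosine kinase that works with Robo receptors, had 2126, 1536 and 2226 against 3053, 2796 and 2793 (0.57, adjusted p = 0.041 from limma). Its call was lost without vector replicate 1 (0.089 in limma) and without nPD-L1 replicate 1, 2 or 3 (0.19, 0.12 and 0.14 in limma). FLRT3, a partner of Unc5 and Robo receptors, was the lower gene, with 65.6, 64.4 and 38.5 against 21.0, 21.2 and 21.2 (−1.33, SE 0.29, adjusted p = 0.025 from limma). Its adjusted p in limma was 0.15 without vector replicate 1 and 0.095, 0.084 and 0.098 without nPD-L1 replicate 1, 2 or 3. Among the roles in the list, called genes were 1 of 3 processing enzymes, 1 of 11 co-receptors and partners, 1 of 29 cytoplasmic mediators, and 0 of 7 GTPase-activating proteins in limma, edgeR or DESeq2 (1 at an unadjusted p under 0.05 in limma). DCC, the classical netrin receptor, did not reach the minimum value, with at most 2.52 scaled reads in any library.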

How the data were processed

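RNA sequencing had been performed on 6 libraries of Hep3B cells with PD-L1 knocked out, 3 vector and 3 nPD-L1, grouped and numbered by their titles. Per the submitters' processing notes, CASAVA and HISAT2 2.0.5 with hg38 were used, and the counter and annotation release are not given in the sources used here. The library kit is NEBNext Ultra, and the strand setting is not stated, so reads of overlapping antisense genes cannot be told apart.

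The authors deposited 1 signal value per gene and library. It is a read number over a library size factor, although the table calls it raw. All nonzero values (100%) were whole multiples of the value of 1 read, 0.84 to 1.13, within 0.00016 reads. In vector replicate 1 and nPD-L1 replicate 2 that step lies near 1. The authors' deposited gene length, in the same table (a column of unit other), gave the values per kb. Its group means, log2 fold changes, p values and adjusted p values were not used. There were 0 columns of other samples.

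limma (version 3.58.1, R 4.3.3) was fitted to log2(value + 1) with eBayes (trend, robust) over 15076 genes that had 10 scaled reads or more in 3 libraries or more, with Benjamini-Hochberg adjustment over all of them. Fold changes on this scale understate the change of low genes. Fitted alternatives were pseudocounts of 0.1 and 10, other filters, scalings and moderation, protein-coding genes only, each library left out, a block on the replicate number, other thresholds, and edgeR (4.0.16) and DESeq2 (1.42.0) on the recovered reads. Fits on 4 libraries, those with a step farther from 1, were added after the data were seen. The fits were tested on simulated data. A count ratio has an exact 95% interval for counting error.

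Guidance genes were taken by symbol. Named with values are every called guidance gene, the 2 highest per kb and the largest and smallest log2 fold change of each family, those with an unadjusted p under 0.05, every called gene of the list of partners, and CD274. Other named genes were chosen after their values were seen. The gene lists were chosen with earlier results of these data known. Coordinates are from the table and were identical to GENCODE 29 for 62 of 62 guidance genes. Promoters are from RefSeq (GRCh38.p14). 1 group of partner genes is not reported here.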

Additional observations from a re-analysis of the deposited data

How the results depend on the processing

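The count of 10 called guidance genes stayed at 10 with pseudocounts of 0.1 and 10, no filter, upper-quartile or trimmed mean of M values factors, moderation without robust, and protein-coding genes only. It was 9 in edgeR and 11 in DESeq2, with PLXNB1 added, on the whole reads of 6 libraries, and 7 with 10 scaled reads or more required in every library, where EFNA2, EFNA3 and EPHB3 were not tested. With each library left out it ranged from 3 to 10, and for the partners the count of 5 ranged from 3 to 6. The share of all genes called in each of these alternatives is not given here. On 4 libraries, a choice made after the data were seen, limma, edgeR and DESeq2 called 5, 5 and 6 guidance genes and 3, 3 and 3 partners. An unadjusted p under 0.05 gave 16 of the 49 guidance genes, where 14.2% of all genes tested had one, and 11 partners, and a 2-fold minimum added to the adjusted p gave 7 and 3. Upper-quartile factors ended the call of ABL1 (adjusted p = 0.053 in limma).

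SEMA7A and EFNA1 were called in all 21 fits, and EFNA2 in all 17 that tested it. EFNA2 passed the filter only through the nPD-L1-labelled libraries, so no leave-one-out fit tested it without one of them. Its 17 fits are therefore not a like measure of stability. 0 of the 10 called guidance genes and 0 of the 5 called partners changed direction in any fit that tested them. The median log2 fold change of all genes was −0.019, −0.044 with upper-quartile factors and −0.009 with trimmed mean factors.

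With the replicate number as a block, 11 guidance genes and 6 partners were called, PLXNB1 being the added guidance gene (adjusted p = 0.022 in limma). The deviations of same-numbered libraries from their group means had correlations of −0.013, 0.229 and 0.131 for numbers 1, 2 and 3. Vector replicates 2 and 3 correlated best with their own number, and vector replicate 1 with nPD-L1 replicate 3 (0.074). Correlations of libraries with unlike numbers went down to −0.219. These values do not settle a pairing, and the main fit took the samples to share only a number. Counting error is widest for the 13 guidance genes below the minimum value.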

Other observations

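Within 100 kb of the 10 called guidance genes, CDH23, a cadherin next to UNC5B on chromosome 10, was the one called gene that is not a guidance gene. It had 11.1, 9.03 and 17.7 scaled reads in vector libraries and 43.7, 46.5 and 57.9 in the nPD-L1-labelled libraries (log2 fold change 1.93, SE 0.34, adjusted p = 0.0065 from limma). With 4.96% of all genes tested called in limma, 1 such call does not set these regions apart. EPHB3 and PLXNA2 had 0 tested neighbors within this distance. PGAM1P5, a pseudogene on the strand opposite to NTN4 that overlaps it, had 23.2, 6.78 and 28.1 against 5.88, 3.03 and 10.6 scaled reads (−1.36, adjusted p = 0.355 from limma).

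HNF4A, a hepatocyte transcription factor, had 19.2, 11.3 and 6.24 scaled reads in vector libraries and 51.3, 51.6 and 33.8 in the nPD-L1-labelled ones (log2 fold change 1.91, adjusted p = 0.023 from limma). Its groups did not overlap, whereas ALB stood at 2.02, 1.13 and 0 against 0 in all libraries labelled nPD-L1. HNF4A was the 1 called gene of the 4 hepatocyte markers tested. FGB, APOH and SERPINA1 had log2 fold changes of −0.21, −0.28 and 0.22 (adjusted p = 0.628, 0.669 and 0.886 from limma). Among neuron markers, SNAP25 had 125, 143 and 195 against 120, 98.1 and 107 (−0.49, adjusted p = 0.284 from limma).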
